A study of Mus musculus with 24 samples.

Results

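The genes described here are those of glutathione metabolism and of the antioxidant enzymes in the mouse: the glutathione S-transferases of 7 soluble classes and the microsomal ones, the glutathione peroxidases, the peroxiredoxins, the thioredoxins and thioredoxin reductases, the superoxide dismutases, catalase, the enzymes that make and reduce glutathione, and the quinone reductase Nqo1. They were chosen by symbol alone, which gave 52 of the 23947 genes in the expression table. RNA-seq was run on 3 tissues of unmodified CD-1 mice: lens fibers at P1, lens epithelium at P1 and forebrain at E12.5. Each group was 1 library of total RNA from dissected tissue, prepared with a strand-specific method, and the number of animals per library was not stated. The study asked how the transcription factor Pax6 works in lens and forebrain, and its ChIP-seq and FAIRE-seq lists were not used here.

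Glutathione is a tripeptide of glutamate, cysteine and glycine. Glutamate-cysteine ligase (catalytic subunit Gclc, modifier subunit Gclm) makes the first bond, which is the rate-limiting step, and glutathione synthetase (Gss) adds the glycine. Glutathione peroxidases use it to reduce peroxides, glutathione S-transferases couple it to electrophiles, and glutathione reductase (Gsr) restores the reduced form with NADPH, while peroxiredoxins draw their electrons from thioredoxin and thioredoxin reductase. The lens is known for one of the highest glutathione contents of any tissue, and loss of it accompanies cataract. The lens epithelium is a single layer of cells that still divide, and the fibers that differentiate from it fill with crystallins and lose their nuclei and mitochondria.

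With 1 library per group there was no replicate error for any value, so no difference below was tested, and log2 ratios are descriptions of these libraries. Forebrain and lens also differed in age, and the effects of tissue and of age cannot be told apart here. Each log2 ratio compares RPKM values (reads per kilobase of transcript and unit of library depth) after adding 1 to both, so differences of low genes are understated, and genes were compared where either library of a pair reached 1 RPKM. Summed RPKM was 2603161 in fibers, 587475 in epithelium and 598020 in forebrain, and crystallins held 69.2%, 3.70% and 0.0222% of these sums. As deposited, genes at 1 RPKM or more in both libraries had a median log2 ratio of -0.20 for fibers over epithelium, -0.05 for epithelium over forebrain and -0.19 for fibers over forebrain. If the libraries are instead scaled to equal sums, those medians become -1.75, -0.03 and -1.72, so fiber ratios below depend on the scaling. Because 1 is added, the shift is smaller for genes low in fibers. For fibers over epithelium Gss went from 4.06 to 1.92, while Gpx7, at 0.133 RPKM in fibers, went from -2.95 to -3.11. Members past 2-fold whose direction turns with the scaling are named beside their values. Among members less than 2-fold apart, 8 also turned for fibers over epithelium (Gclc, Gpx4, Gsto1, Gsto2, Prdx1, Prdx2, Sod1 and Txn2), as did 14 for fibers over forebrain and 0 for epithelium over forebrain. Values from dissected tissue cannot separate fewer cells of a type from less RNA per cell.

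Of the 52 genes, 40 reached 1 RPKM in at least 1 library, and 12 stayed below it, the highest of these at 0.931 RPKM. Gsta1, Gsta2, Gstt4, Gpx5 and Gpx6 were listed at 0 in all 3 libraries. The members summed to 3313 RPKM in fibers, 1827 RPKM in epithelium and 1413 RPKM in forebrain. The order of these sums turns with the scaling, since the fiber sum was 1.81 times that of epithelium as deposited and 0.409 times at equal summed RPKM. The share of each member within a library does not depend on scaling. In fibers Gss, Gstp1 and Gpx1 together made up 54.5% of the summed RPKM of all members, against 8.43% in epithelium and 8.82% in forebrain. Prdx2, a cytosolic peroxiredoxin, led the members in epithelium with 16.7% and in forebrain with 33.9% of the sum, and held 14.2% in fibers.

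**Figure D1:**
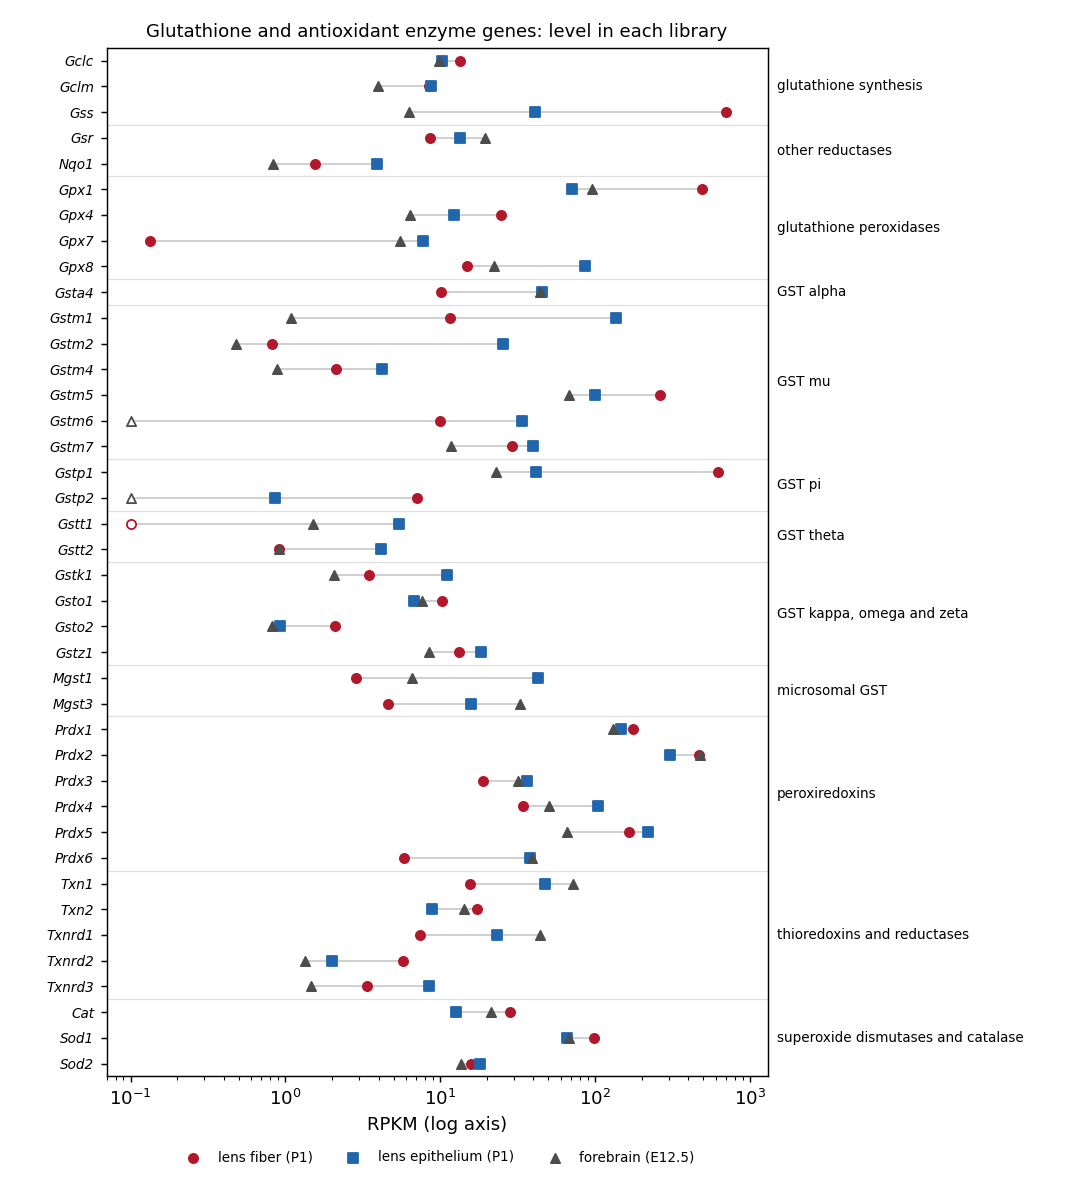
RPKM (log axis) of the 40 genes that reached 1 RPKM, by enzyme family, in lens fibers (red circles), lens epithelium (blue squares) and forebrain (grey triangles), 1 library each. Open symbols stand for values below 0.1 RPKM drawn at 0.1, and the fiber symbols of Gss, Gstp1 and Gpx1 lie to the right of every other symbol.

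Of the 3 genes of glutathione synthesis, Gss was the only one with a log2 ratio past 1 as deposited. Gss was listed at 698 RPKM in fibers, 41.0 RPKM in epithelium and 6.28 RPKM in forebrain. Fibers were the highest library and forebrain the lowest, with log2 ratios of 4.06 for fibers over epithelium, 2.53 for epithelium over forebrain and 6.59 for fibers over forebrain. By rank within the library, a measure that no scaling moves, Gss was gene 88 in fibers, 990 in epithelium and 6412 in forebrain. Gclc, the rate-limiting subunit, was close in all 3 libraries, at 13.5, 10.2 and 9.85 RPKM in fibers, epithelium and forebrain. Its modifier Gclm was at 8.50 RPKM in fibers, 8.72 RPKM in epithelium and 3.94 RPKM in forebrain, which is 2.15 and 2.21 times the forebrain level for fibers and epithelium, or log2 ratios of 0.94 and 0.98 after adding 1. At equal summed RPKM Gclc and Gclm were both past 2-fold lower in fibers than in epithelium, with log2 ratios of -1.48 and -1.74. For fibers over forebrain both then turned, Gclc to -1.40 and Gclm to -0.74. The level of Gss was thus 51.7 times that of Gclc in fibers, 4.01 times in epithelium and 0.637 times in forebrain, a ratio within each library that does not depend on scaling. A long noncoding gene, Gssos2, overlaps Gss in RefSeq, where 15 members in all overlap another gene, and whether reads were counted by strand was not stated, so reads of overlapping genes may be mixed. The reductase Gsr ran the other way in level, at 8.57 RPKM in fibers, 13.4 RPKM in epithelium and 19.3 RPKM in forebrain, with a log2 ratio of -1.09 for fibers over forebrain.

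Of the 24 glutathione S-transferases, 17 reached 1 RPKM in fibers or epithelium. Together they summed to 994 RPKM in fibers, 532 RPKM in epithelium and 210 RPKM in forebrain (fibers over epithelium 1.87 times, and 0.422 times at equal summed RPKM), and a different class led in each lens library. The pi class held 63.2% of that sum in fibers, 8.0% in epithelium and 10.9% in forebrain, while the mu class held 32.0%, 63.5% and 38.9%. Gstp1, the main pi enzyme, was at 621 RPKM in fibers, 41.7 RPKM in epithelium and 23.0 RPKM in forebrain. Only the fiber library was high, with a log2 ratio of 3.86 over epithelium and 4.70 over forebrain, while epithelium and forebrain differed by 0.83. Gstp2, its neighbouring copy, was at 7.08 RPKM in fibers and 0.863 RPKM in epithelium and was listed at 0 in forebrain. Reads of such close copies can be split unequally: of the alpha globin pair Hba-a1 and Hba-a2, forebrain listed 956 and 0.00389 RPKM. The sum of both pi genes was 628 RPKM in fibers, 42.5 RPKM in epithelium and 23.0 RPKM in forebrain, which does not depend on that split.

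The 7 mu genes lie side by side on chromosome 3 in RefSeq with no other protein-coding gene between the first and the last, and they did not share a pattern. At one end, Gstm5 was at 264 RPKM in fibers, 99.5 RPKM in epithelium and 67.5 RPKM in forebrain. It was highest in fibers as deposited (log2 ratio 1.40 over epithelium), and at equal summed RPKM this ratio turned to -0.73. Gstm7, next in order, was at 29.1 RPKM in fibers, 39.5 RPKM in epithelium and 11.8 RPKM in forebrain. Further along, Gstm6 was at 9.91 RPKM in fibers and 33.7 RPKM in epithelium and was listed at 0 in forebrain. Gstm2 was at 0.820 RPKM in fibers, 25.3 RPKM in epithelium and 0.482 RPKM in forebrain. Gstm1 was at 11.6 RPKM in fibers, 136 RPKM in epithelium and 1.09 RPKM in forebrain. These 3 genes had their highest value in epithelium and log2 ratios of -1.67, -3.85 and -3.44 for fibers over epithelium. Gstm4 at the other end was at 2.13 RPKM in fibers, 4.18 RPKM in epithelium and 0.885 RPKM in forebrain, and Gstm3 reached 0.109 RPKM. Mu genes are near copies of each other, so values of single members are uncertain. Gstm1, Gstm2, Gstm3 and Gstm6 summed to 22.5 RPKM in fibers, 195 RPKM in epithelium and 1.57 RPKM in forebrain.

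**Figure D2:**
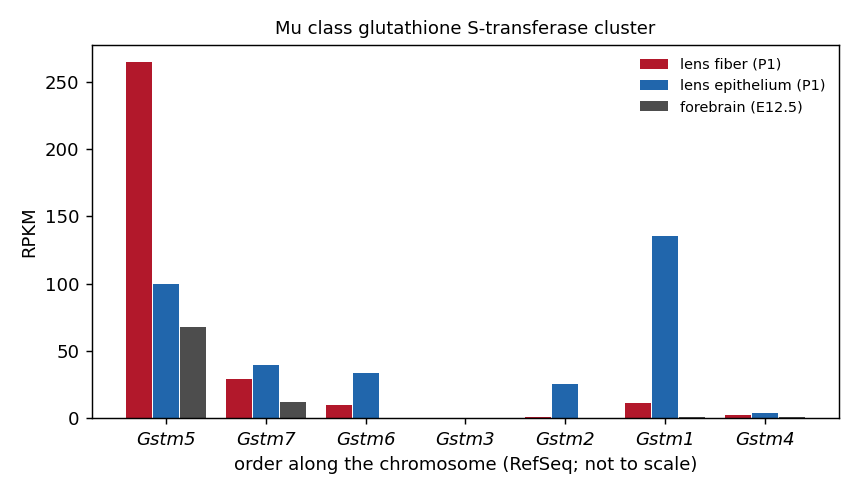
RPKM of the 7 mu class glutathione S-transferase genes in their order along the chromosome, in lens fibers, lens epithelium and forebrain (bars, 1 library each, no error). As deposited, the fiber bar is the tallest of the 3 at Gstm5, which turns at equal summed RPKM, and the epithelium bar is the tallest at Gstm7, Gstm6, Gstm2, Gstm1 and Gstm4.

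The alpha, theta and microsomal transferases had lower sums in fibers than in epithelium, at 0.228, 0.0904 and 0.127 times the epithelium sum. Gsta4, which conjugates the lipid peroxidation product hydroxynonenal, was at 10.2 RPKM in fibers, 45.1 RPKM in epithelium and 43.9 RPKM in forebrain. Only the fiber library was low. Mgst1, a membrane-bound transferase with peroxidase activity, was at 2.86 RPKM in fibers, 42.6 RPKM in epithelium and 6.59 RPKM in forebrain, and so was high in epithelium only. Mgst3 was at 4.59 RPKM in fibers, 15.9 RPKM in epithelium and 32.9 RPKM in forebrain, and Mgst2 stayed below 1 RPKM. Gstt1 of the theta class was listed at 0 in fibers, at 5.4 RPKM in epithelium and at 1.51 RPKM in forebrain, and Gstt2 had 0.905, 4.12 and 0.907 RPKM in the same libraries. Gstk1, the kappa enzyme of mitochondria and peroxisomes, was at 3.49 RPKM in fibers, 11.1 RPKM in epithelium and 2.07 RPKM in forebrain. Gstz1, which also isomerizes maleylacetoacetate in tyrosine breakdown, was at 13.2, 18.4 and 8.40 RPKM, and Gsto1 was at 10.3, 6.80 and 7.62 RPKM, in fibers, epithelium and forebrain. Gsto2, the other omega enzyme, was at 2.08 RPKM in fibers, 0.920 RPKM in epithelium and 0.815 RPKM in forebrain, and Gsta3 and Gstt3 stayed below 1 RPKM.

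Among the glutathione peroxidases, the cytosolic enzyme was highest in fibers and the enzymes of the endoplasmic reticulum in epithelium. Gpx1, the cytosolic selenoenzyme, was at 487 RPKM in fibers, 71.5 RPKM in epithelium and 95.4 RPKM in forebrain. Fibers were high and the other libraries close to each other, with log2 ratios of 2.75 over epithelium and 2.34 over forebrain, which were 0.61 and 0.23 at equal summed RPKM and so below 2-fold. Gpx4, the selenoenzyme that reduces lipid hydroperoxides in membranes, was at 24.5 RPKM in fibers, 12.3 RPKM in epithelium and 6.42 RPKM in forebrain, and its log2 ratio of 1.78 for fibers over forebrain turned to -0.16 at equal summed RPKM. Gpx8, a peroxidase of the endoplasmic reticulum with cysteine in place of selenocysteine, was at 15.0 RPKM in fibers, 86.4 RPKM in epithelium and 22.2 RPKM in forebrain. Gpx7, of the same type and compartment, was at 0.133 RPKM in fibers, 7.78 RPKM in epithelium and 5.49 RPKM in forebrain. Both had their highest value in epithelium and log2 ratios of -2.45 and -2.95 for fibers over epithelium. Gpx2 and Gpx3, the gastrointestinal and plasma enzymes, stayed below 1 RPKM.

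To set the members with the highest fiber levels beside their promoters, the 300 bases around each annotated start (250 before to 50 after) were taken from RefSeq, build GRCm38.p6. A window was matched for 46 of the 52 members, and a gene with several starts was counted once. The windows of Gss, Gstp1 and Gpx1 are shown because these genes led the fiber library. They are given 5′ to 3′ on the gene's strand, with capitals marking any match to the motifs searched on both strands: TGACNNNGC, the core of the antioxidant response element bound by Nrf2 with small Maf proteins, TGANTCA, the core shared by AP-1 and Maf factors, and GAANNTTC, a heat shock element core. The Gss window lies at chr2:155592761-155593060 on the minus strand, the Gstp1 window at chr19:4037863-4038162 on the minus strand and the Gpx1 window at chr9:108338830-108339129 on the plus strand.
Gss: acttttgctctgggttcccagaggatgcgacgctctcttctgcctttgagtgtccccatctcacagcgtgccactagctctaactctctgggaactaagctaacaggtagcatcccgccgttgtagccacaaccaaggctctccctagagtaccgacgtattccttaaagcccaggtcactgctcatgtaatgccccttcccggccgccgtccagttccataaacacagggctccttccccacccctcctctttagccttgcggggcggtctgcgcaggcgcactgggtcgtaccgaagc
Gstp1: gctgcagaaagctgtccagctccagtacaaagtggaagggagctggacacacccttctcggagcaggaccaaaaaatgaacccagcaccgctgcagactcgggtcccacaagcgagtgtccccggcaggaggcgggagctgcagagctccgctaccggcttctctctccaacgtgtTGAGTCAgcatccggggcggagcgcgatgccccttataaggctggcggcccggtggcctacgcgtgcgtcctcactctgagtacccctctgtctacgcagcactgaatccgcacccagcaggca
Gpx1: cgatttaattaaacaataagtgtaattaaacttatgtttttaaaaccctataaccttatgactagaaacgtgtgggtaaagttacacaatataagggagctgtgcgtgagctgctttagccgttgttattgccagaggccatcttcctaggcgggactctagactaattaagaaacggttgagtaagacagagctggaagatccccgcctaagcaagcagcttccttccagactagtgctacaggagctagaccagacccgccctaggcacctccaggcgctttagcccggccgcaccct

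The Gstp1 window held TGAGTCA starting 74 bases before the start, and the Gss and Gpx1 windows held none of the 3 motifs. Gstp2 has the same TGAGTCA 89 bases before its start. The 31 bases around it, at chr19:4042292-4042322 on the minus strand, are letter for letter those of Gstp1 at chr19:4037968-4037998.
Gstp1: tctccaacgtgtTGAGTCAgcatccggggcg
Gstp2: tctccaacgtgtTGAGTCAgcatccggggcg

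TGANTCA was present in 5 of the 46 member windows (10.9%) and in 8.97% of all 27025 genes with a window. GAANNTTC was present in 4 of the 46 (8.70%), against 9.04% of all genes.

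The antioxidant response element core was present in 8 of the 46 member windows (17.4%) and in 14.0% of all genes with a window. The 8 matches are shown with 12 bases on each side and the core in capitals, since these members are the ones for which a shared element could be compared with the levels. On the strand of the gene itself 3 of them matched. On the plus strand these windows are Gclm at chr3:122245411-122245443, Gsta3 at chr1:21240452-21240484, Gstm5 at chr3:107895800-107895832 and Mgst1 at chr6:138140459-138140491. Also on the plus strand are Prdx1 at chr4:116685454-116685486, Sod1 at chr16:90220694-90220726 and Txnrd1 at chr10:82859102-82859134, and on the minus strand is Gstm7 at chr3:107931723-107931755.
Gclm: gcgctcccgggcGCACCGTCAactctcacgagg
Gsta3: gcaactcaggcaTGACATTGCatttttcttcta
Gstm5: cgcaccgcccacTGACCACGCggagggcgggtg
Gstm7: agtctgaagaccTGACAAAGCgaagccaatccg
Mgst1: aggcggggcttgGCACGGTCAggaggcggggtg
Prdx1: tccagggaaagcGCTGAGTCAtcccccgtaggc
Sod1: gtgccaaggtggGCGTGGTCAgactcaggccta
Txnrd1: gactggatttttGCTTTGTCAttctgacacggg

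In Prdx1 the core overlaps a TGANTCA match. The 7 of these genes that were compared had log2 ratios for fibers over epithelium between -3.50 (Mgst1) and 1.40 (Gstm5, which turns at equal summed RPKM), with Txnrd1 at -1.53, Gstm7 at -0.43, Gclm at -0.03, Prdx1 at 0.24 and Sod1 at 0.59. Genes holding the core therefore lay on both sides of 0 as deposited only. At equal summed RPKM Prdx1 and Sod1 turned as well, to -1.88 and -1.51, and all 7 lay below 0. A match is a description of letters in this window and no evidence of binding.

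As deposited, the 6 peroxiredoxins had close sums in the 3 libraries, 870 RPKM in fibers, 853 RPKM in epithelium and 797 RPKM in forebrain, while single members differed. At equal summed RPKM the fiber sum was 0.23 times that of epithelium. Prdx2 was at 471 RPKM in fibers, 305 RPKM in epithelium and 479 RPKM in forebrain. Prdx1, the other cytosolic member of the typical kind, was at 175, 148 and 130 RPKM in the same order, so both were high in every library and neither was 2-fold apart in any pair as deposited. Prdx5, found in mitochondria, peroxisomes and cytosol, was at 165 RPKM in fibers, 221 RPKM in epithelium and 65.8 RPKM in forebrain. Both lens libraries lay above forebrain as deposited, but the log2 ratio of 1.32 for fibers over forebrain turned to -0.78 at equal summed RPKM. Prdx4, the peroxiredoxin of the endoplasmic reticulum, was at 34.4 RPKM in fibers, 104 RPKM in epithelium and 50.8 RPKM in forebrain, with its highest value in epithelium as for Gpx7 and Gpx8. Prdx6, which has a single catalytic cysteine and takes electrons from glutathione, was at 5.86 RPKM in fibers, 38.2 RPKM in epithelium and 39.3 RPKM in forebrain. Only fibers were low for Prdx6, with log2 ratios of -2.52 over epithelium and -2.55 over forebrain. Prdx3, the peroxiredoxin of mitochondria, was at 18.8 RPKM in fibers, 36.3 RPKM in epithelium and 32.0 RPKM in forebrain.

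The cytosolic thioredoxin pair was lowest in fibers. Txn1 was at 15.6 RPKM in fibers, 47.8 RPKM in epithelium and 72.1 RPKM in forebrain. Its reductase Txnrd1, a selenoenzyme, was at 7.42 RPKM in fibers, 23.2 RPKM in epithelium and 43.8 RPKM in forebrain. Both followed the same order of libraries, with log2 ratios of -1.56 and -1.53 for fibers over epithelium and of -2.14 and -2.41 for fibers over forebrain, and the level of Txn1 was 2.10, 2.06 and 1.65 times that of Txnrd1 in fibers, epithelium and forebrain. The mitochondrial pair did not share this order as deposited. Txn2 was at 17.2 RPKM in fibers, 8.81 RPKM in epithelium and 14.3 RPKM in forebrain, and Txnrd2 was at 5.72 RPKM in fibers, 2.0 RPKM in epithelium and 1.35 RPKM in forebrain. At equal summed RPKM Txn2 had log2 ratios of -1.01 for fibers over epithelium and -1.63 for fibers over forebrain, and so followed the order of Txn1. The log2 ratio of Txnrd2 for fibers over epithelium was 1.17 and turned to -0.39 at equal summed RPKM. Txnrd3, which joins a glutaredoxin domain to the reductase, was at 3.37 RPKM in fibers, 8.42 RPKM in epithelium and 1.47 RPKM in forebrain.

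The superoxide dismutases stayed within 2-fold as deposited. Sod1, the copper and zinc enzyme of the cytosol, was at 98.9 RPKM in fibers, 65.5 RPKM in epithelium and 67.7 RPKM in forebrain, and Sod2, the manganese enzyme of mitochondria, was at 15.7, 18.2 and 13.6 RPKM. The secreted Sod3 reached 0.115 RPKM. Cat, the catalase of peroxisomes, was at 28.3 RPKM in fibers, 12.6 RPKM in epithelium and 21.2 RPKM in forebrain, with a log2 ratio of 1.10 for fibers over epithelium that turned to -0.88 at equal summed RPKM. Nqo1, a target of Nrf2 in many tissues, stayed low at 1.56 RPKM in fibers, 3.91 RPKM in epithelium and 0.830 RPKM in forebrain.

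**Figure D3:**
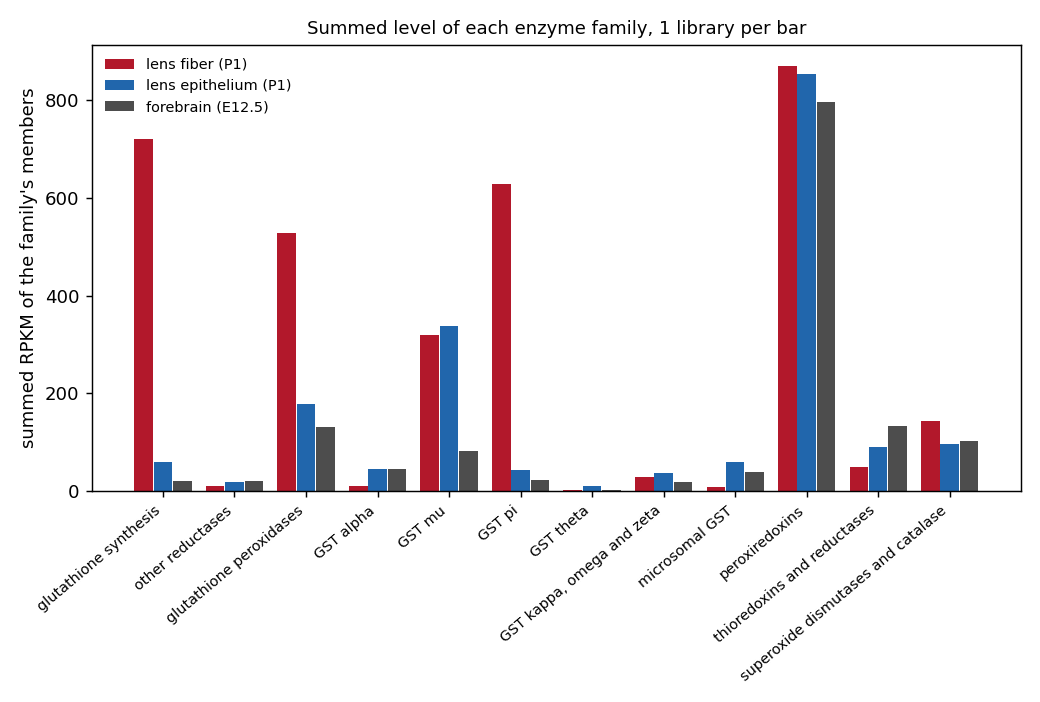
Summed RPKM of the members of each family in lens fibers, lens epithelium and forebrain (bars, 1 library each, no error). The peroxiredoxin bars lie between 797 and 870 RPKM, while the fiber bars of glutathione synthesis and of the pi class are 12 and 14.8 times those of epithelium (2.71 and 3.33 times at equal summed RPKM).

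Lens fibers were compared with lens epithelium to follow the members through fiber differentiation. As deposited, 7 of the 40 members compared were at least 2-fold higher in fibers (17.5%), against 11.4% of the 12090 genes compared, and 16 of 40 were at least 2-fold lower, against 28.3% of all. Past 4-fold, 4 of 40 members were higher, against 3.75% of all genes, and 8 of 40 lower (20.0%), against 8.12%. The median log2 ratio was -0.52 over the members and -0.42 over all genes compared, with members past 2-fold on both sides. The 7 higher genes were Gss, Gstp1, Gpx1, Gstp2, Gstm5, Txnrd2 and Cat. The 16 lower genes were 9 of the 17 glutathione S-transferases compared and 2 of the 4 glutathione peroxidases. The others were 2 of the 6 peroxiredoxins and 3 of the 5 genes of the thioredoxin group. At equal summed RPKM 2 members were higher (Gss and Gstp1, against 1.7% of all genes) and 32 of 40 lower (against 81.9%). No member was then past 4-fold higher (0 of 40, against 0.744% of all genes).

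**Figure D4:**
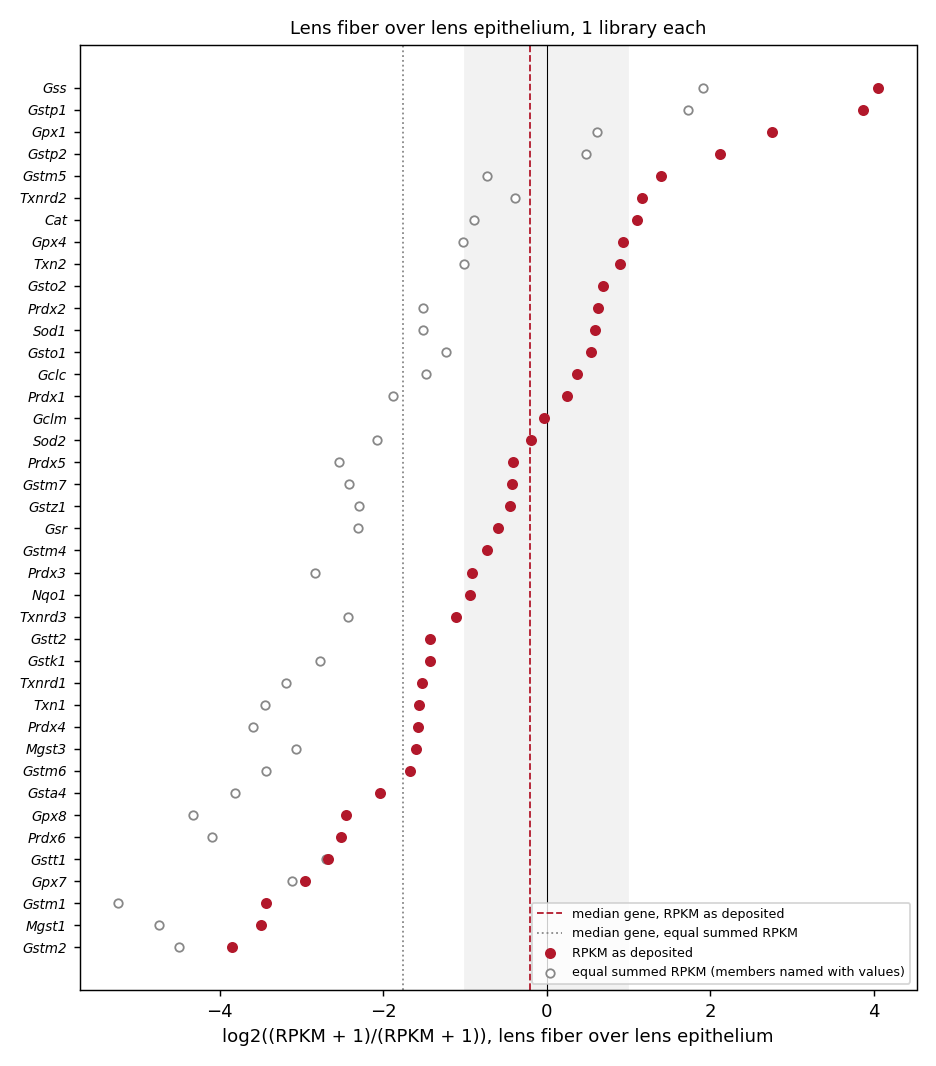
Log2 ratio of lens fibers over lens epithelium for the 40 members compared (red, RPKM as deposited) and, for 35 of them, at equal summed RPKM (open grey). These 35 reached 10 RPKM in a library, or 5 RPKM with a 2-fold difference in a comparison. The shaded band is less than 2-fold, the dashed and dotted lines are the median gene under each scaling, and Gss and Gstp1 lie right of 1 under both.

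Lens epithelium was compared with forebrain to set the lens against the other tissue of the study. Of the 38 members compared, 16 were at least 2-fold higher in epithelium (42.1%), against 13.7% of the 12619 genes compared, and 1 was at least 2-fold lower (2.63%), against 11.9%. Past 4-fold, 5 were higher (13.2%, against 4.68%) and 0 lower (against 3.25%). The median log2 ratio was 0.69 over the members and -0.03 over all genes compared. Transferases made up 10 of the 16 higher genes and 15 of the 38 members compared. Of the higher transferases 5 were mu genes, near copies whose single values are uncertain. The largest log2 ratio was 6.03 for Gstm1, whose forebrain value was near the 1 RPKM limit. Gstm6 followed with 5.12 and was listed at 0 in forebrain, so its ratio rests on the added 1. Gstm2 had 4.15, Gss had 2.53 and Mgst1 had 2.52. Gpx8 (1.91), Prdx5 (1.73) and Prdx4 (1.03) were the peroxidases among them, and Mgst3 was the lower gene, at -1.01.

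Between lens fibers and forebrain, 11 of 38 members were at least 2-fold higher in fibers (28.9%), against 15.9% of the 12205 genes compared, and 8 were at least 2-fold lower (21.1%), against 31.6%. Past 4-fold, 6 were higher (15.8%, against 6.37%) and 6 lower (15.8%, against 11.4%). The median log2 ratio was 0.45 over the members and -0.41 over all genes compared. Higher members outside the transferases were Gss, Gpx1, Gpx4, Prdx5 and Txnrd2, of which Gpx4, Prdx5 and Txnrd2 turned direction at equal summed RPKM, as did the transferases Gstm5 (1.96, then -0.15) and Gstm7 (1.24, then -0.73). Lower members were Gpx7, Gsr, Gsta4, Gstt1, Mgst3, Prdx6, Txn1 and Txnrd1. The 3 comparisons share libraries, so their counts are not independent of each other.

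Other genes of these pathways, from 9 fixed lists of 89 genes of which 88 were used, were read beside the members. For fibers over epithelium 15 of 80 compared were past 2-fold above and 22 past 2-fold below, with a median log2 ratio of -0.16. For epithelium over forebrain 20 of 81 were higher and 3 lower, with a median of 0.25. For fibers over forebrain 30 of 80 were higher and 16 lower, with a median of 0.47. The shares over all genes as deposited are those given above for each pair. At equal summed RPKM 2 were higher (Hmox1 and Ggct) and 62 lower for fibers over epithelium, against 1.7% and 81.9% of all genes. For fibers over forebrain 3 were then higher (Hmox1, Ggct and Aldh1a1) and 45 lower, against 3.6% and 75.7% of all genes.

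As deposited, Nrf2 and its inhibitor were less than 2-fold apart in every comparison. Nfe2l2, which encodes Nrf2, was at 5.75 RPKM in fibers, 5.10 RPKM in epithelium and 3.75 RPKM in forebrain. Keap1, the adaptor that sends Nrf2 to degradation, was at 13.6, 12.4 and 9.91 RPKM. Both were past 2-fold lower in fibers than in the other libraries at equal summed RPKM. Bach1, the repressor that competes with Nrf2 for the same sites, was at 2.52 RPKM in fibers, 7.75 RPKM in epithelium and 13.6 RPKM in forebrain, lowest in fibers. The small Maf gene Mafg, whose product pairs with both, was at 39.8 RPKM in fibers, 16.3 RPKM in epithelium and 6.94 RPKM in forebrain, in the opposite order as deposited. Its log2 ratio of 1.24 for fibers over epithelium turned to -0.79 at equal summed RPKM.

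Hmox1, the inducible haem oxygenase and a target of both Bach1 and Nrf2, was at 317 RPKM in fibers, 2.65 RPKM in epithelium and 2.58 RPKM in forebrain. Fibers alone were high, with log2 ratios of 6.45 over epithelium and 6.47 over forebrain, and the ratio over epithelium was 4.32 at equal summed RPKM. The ferritin light chain gene Ftl1 was at 1149.8 RPKM in fibers, 264 RPKM in epithelium and 348 RPKM in forebrain, with a log2 ratio of 2.12 for fibers over epithelium that was -0.02 at equal summed RPKM. Park7, which encodes DJ-1, a protein that senses oxidation, was at 644 RPKM in fibers, 109 RPKM in epithelium and 98.0 RPKM in forebrain. Its log2 ratio of 2.56 for fibers over epithelium stayed above 0, at 0.42, at equal summed RPKM.

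Ggct, the gamma-glutamylcyclotransferase of the gamma-glutamyl cycle that breaks down and rebuilds glutathione, was at 81.6 RPKM in fibers, 1.21 RPKM in epithelium and 0.489 RPKM in forebrain. Fibers alone were high, with log2 ratios of 5.22 over epithelium and 5.79 over forebrain. Ggt1, the cell-surface enzyme that opens the cycle, was instead highest in epithelium, at 4.35 RPKM in fibers, 16.4 RPKM in epithelium and 0.245 RPKM in forebrain. Glyoxalases, which use glutathione to clear methylglyoxal, were both lowest in forebrain as deposited. Glo1 was at 102 RPKM in fibers, 54.2 RPKM in epithelium and 22.3 RPKM in forebrain, and Hagh at 75, 19.9 and 8.53 RPKM. The log2 ratio of Hagh for fibers over epithelium, 1.86, was -0.22 at equal summed RPKM. For cystine import, the heavy chain Slc3a2 was at 79.2 RPKM in fibers, 112 RPKM in epithelium and 13.6 RPKM in forebrain, and the light chain Slc7a11 at 3.58, 10.4 and 1.83 RPKM. Cth, which makes cysteine from cystathionine, was at 0.233 RPKM in fibers, 1.57 RPKM in epithelium and 5.19 RPKM in forebrain.

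Among 12 glutaredoxins and partners of thioredoxin, 4 were at least 2-fold lower in fibers than in epithelium and 0 higher, a share of lower genes near the 28.3% of all genes compared. Txnip, the inhibitor of thioredoxin, was at 0.471 RPKM in fibers, 19.8 RPKM in epithelium and 17.2 RPKM in forebrain. Glrx, the cytosolic glutaredoxin, was at 0.0838 RPKM in fibers, 4.12 RPKM in epithelium and 2.56 RPKM in forebrain. Fibers alone were low for both. The secreted selenoprotein gene Sepp1 was at 0.440 RPKM in fibers, 29.8 RPKM in epithelium and 14.1 RPKM in forebrain. Sepw1, a small cytosolic selenoprotein, was at 408 RPKM in fibers, 96.1 RPKM in epithelium and 140 RPKM in forebrain, and its log2 ratio of 2.07 for fibers over epithelium was -0.06 at equal summed RPKM. Tkt, the transketolase of the pentose phosphate pathway that supplies NADPH, was at 126 RPKM in fibers, 529 RPKM in epithelium and 86.1 RPKM in forebrain, high in epithelium alone.

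The remaining pathway genes at least 4-fold apart in a comparison did not share a pattern. Aldh1a1, an aldehyde dehydrogenase that makes retinoic acid, was at 643 RPKM in fibers, 784 RPKM in epithelium and 0.378 RPKM in forebrain, high in both lens libraries. Akr1b8, an aldo-keto reductase, was at 12.8 RPKM in fibers, 1.11 RPKM in epithelium and 1.82 RPKM in forebrain, high in fibers alone. Ccs, the copper chaperone of Sod1, was at 43.8 RPKM in fibers, 26 RPKM in epithelium and 9.51 RPKM in forebrain, and was lowest in forebrain as deposited. Genes highest in epithelium came next. Hif1a, the oxygen-regulated transcription factor, was at 16.3 RPKM in fibers, 176 RPKM in epithelium and 36.3 RPKM in forebrain. Msrb3, a methionine sulfoxide reductase, was at 1.38, 14.6 and 7.44 RPKM in the same libraries. Ephx1, the microsomal epoxide hydrolase, was at 2.83 RPKM in fibers, 7.62 RPKM in epithelium and 0.346 RPKM in forebrain, and the exporter Abcc4 was at 0.298, 4.42 and 0.589 RPKM. Gdap1 and Ggt7 were highest in forebrain, with Gdap1 at 0.221 RPKM in fibers, 0.769 RPKM in epithelium and 7.88 RPKM in forebrain, and Ggt7 at 0.400, 0.669 and 4.97 RPKM.

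**Figure D5:**
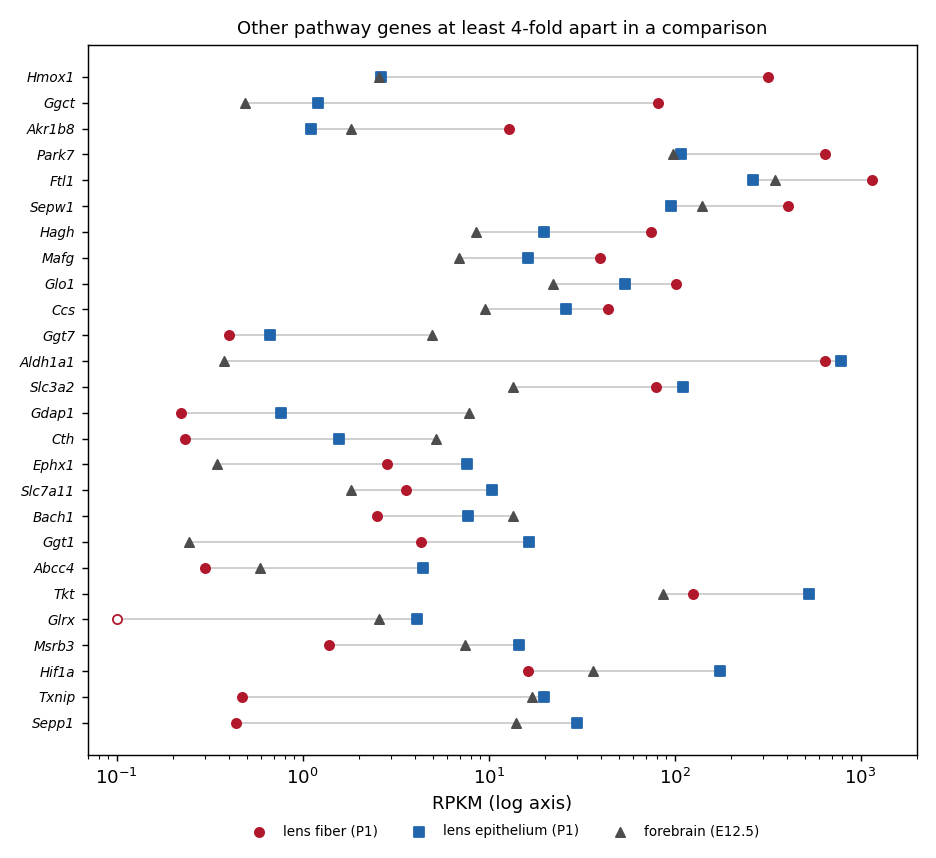
RPKM (log axis) in lens fibers, lens epithelium and forebrain of the 26 other pathway genes at least 4-fold apart in a comparison, ordered by the log2 ratio of fibers over epithelium, 1 library each. Open symbols are values below 0.1 RPKM drawn at 0.1, and Hmox1 and Ggct lie farthest right of their epithelium values.

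Marker genes were read for each library and for other cells that dissection could include. The 6 fiber markers ranged from 731 to 22918 RPKM in fibers, 10.6 to 286 RPKM in epithelium and 0.0239 to 2.01 RPKM in forebrain, and the 5 forebrain markers summed to 4.11, 9.03 and 860 RPKM. Of the 5 epithelium markers, Foxe3, Cdh1, Pax6 and Trpm3 in fibers were at 2.23%, 1.51%, 17.0% and 42.5% of their epithelium values as deposited. Clu was higher in fibers as deposited (log2 ratio 0.92, and -1.22 at equal summed RPKM). The epithelium value was 0.193% to 13.2% of the fiber value for the fiber markers, against 5.87% for Gss, 6.72% for Gstp1 and 14.7% for Gpx1, and how far fiber RNA in the epithelium library bears on these was not tested. Erythroid markers, from cells rich in Prdx2, Cat and Gpx1, summed to 6.62 RPKM in fibers, 346 RPKM in epithelium and 5643 RPKM in forebrain, with 2, 4 and 8 of 9 at 1 RPKM or more. Their part in the epithelium and forebrain values of Prdx2, Cat and Gpx1 was not tested. Pigment and ciliary markers summed to 9.72, 66.4 and 5.27 RPKM in fibers, epithelium and forebrain, with Tyr and Mlana at 0 in fibers. Mitf of this list held most of the fiber sum, at 9.57 RPKM in fibers and 7.34 RPKM in epithelium. Its log2 ratio of 0.34 for fibers over epithelium was -1.41 at equal summed RPKM. Endothelial markers summed to 1.70, 51.3 and 20.5 RPKM with Cdh5 and Emcn at 0 in fibers, myeloid markers to 1.18, 17.0 and 9.83 RPKM with Ptprc at 0 in fibers, and retinal markers to 1.41, 12.7 and 0.122 RPKM. Members highest in epithelium, such as Gstm1, Mgst1 and Gpx8, shared that highest library with the sums of these lists. As deposited, forebrain lay above fibers for the endothelial and myeloid sums, Mgst1 and Gpx8. It lay below fibers for the pigment and retinal sums and Gstm1. The part of those cells in the values of these members was not tested. Mesenchyme markers summed to 0.208, 4.55 and 80.4 RPKM, and the cornea and surface epithelium markers stayed below 1 RPKM in every library.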

How the data were processed

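Expression was measured by RNA-seq in 3 libraries, 1 each from lens fibers (P1), lens epithelium (P1) and forebrain (E12.5). The authors deposited 1 table of RPKM values. Per the submitters' processing notes, the build was mm9 and the tools were Cuffdiff, Cufflinks (version 2) and TopHat2 (version 2). Which tool did what, the gene annotation, how reads matching several places were counted and how libraries were scaled to each other were not stated. Values above 0 go down to 1.10e-07 RPKM and are not multiples of whole reads, so depth is unknown and no counting interval was computed.

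Members were found by symbol. The members and gene lists were chosen with earlier results of these data known, and the AP-1 and heat shock motifs and the whole windows printed were added after the values were seen. Members at 10 RPKM in a library, or past 2-fold and at 5 RPKM, were described with values in all 3 libraries, and other members by range, except a few low ones named to complete a family. Other pathway genes were named past 4-fold, with Nfe2l2, Keap1 and Bach1.

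Ratios used a pseudocount of 1 RPKM and a minimum of 1 RPKM in either library, in Python 3.11.15 with pandas 2.3.3 and numpy 2.4.6. The code was tested on simulated data. All 52 symbols matched RefSeq (GRCm38.p6), used for gene order, overlaps and promoter windows. Peak and island lists on mm9 were not used, since no annotation of that build was at hand. Alternatives were other pseudocounts, filters and scalings.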

Additional observations from a re-analysis of the deposited data

How the results depend on the processing

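Scaling was the choice that moved most. At equal summed RPKM the members at least 2-fold higher were 2 for fibers over epithelium (7 as deposited) and 4 for fibers over forebrain (11), against 1.7% and 3.6% of all genes, and the lower ones were 32 (16) and 21 (8), against 81.9% and 75.7%. Without crystallins in the sums, 4 members were higher for fibers over epithelium, against 6.67% of all genes. For epithelium over forebrain a pseudocount of 5 RPKM left 10 higher (16), and Mgst3, the 1 lower member, was lost (0) under that pseudocount and under each of the 4 other scalings tried. The count of antioxidant response element cores was 3 on the gene's strand and 8 on both. All other counts of members past 2-fold stayed within 1.5 times. Counts past 4-fold and counts of the pathway lists, recomputed after seeing the data, moved further at equal summed RPKM. For fibers over epithelium members past 4-fold were 0 higher (4), against 0.744% of all genes, and 22 of 40 lower (8), against 35.7%. For fibers over forebrain 2 were higher (6), against 1.73%, and 12 of 38 lower (6), against 36.7%. Pathway genes past 2-fold higher were 2 (15) and 3 (30) for these pairs, against 1.7% and 3.6% of all genes. The pseudocount moved these counts too. At 5 RPKM, members past 4-fold for fibers over forebrain were 3 higher (6) and 1 lower (6), against 3.43% and 3.31%. Pathway genes past 2-fold lower for fibers over epithelium were then 10 (22), against 9.69%. At 0.1 RPKM, members past 4-fold higher for epithelium over forebrain were 10 of 38 (5), against 8.81%. Called log2 ratios that turned did so at equal summed RPKM: for fibers over epithelium Cat (-0.88), Gstm5 (-0.73) and Txnrd2 (-0.39), and for fibers over forebrain Gpx4 (-0.16), Gstm5 (-0.15), Gstm7 (-0.73), Prdx5 (-0.78) and Txnrd2 (-0.021). Across all settings Gss ranged from 1.92 to 4.26 and Gstp1 from 1.73 to 4.07 for fibers over epithelium, while Gpx1 ranged from 0.61 to 2.96. Called members at 5 RPKM or more in a library were followed through every setting. Of these, 15 of 22 (fibers over epithelium), 10 of 14 (epithelium over forebrain) and 10 of 19 (fibers over forebrain) stayed past 2-fold throughout. Gstt2, Gstm4 and Nqo1 were also called in a comparison but stayed below 5 RPKM, and these counts leave them out. No paired analysis was possible because each RNA group held 1 library and no test was made, and no replicate could be left out. Depth is unknown, so a value listed at 0 has no upper limit here.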

Other observations

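Members were also read by compartment. A list of 5 members of the endoplasmic reticulum or secretory route was used, which left out the microsomal transferases. Of its 3 members that reached 1 RPKM (Prdx4, Gpx7 and Gpx8), 3 were at least 2-fold lower in fibers than in epithelium. Their median log2 ratio was -2.45, and 28.3% of all genes were lower. The microsomal Mgst1 and Mgst3 were at -3.50 and -1.59. Genes of the endoplasmic reticulum in the pathway lists ranged widely, with P4hb at -1.59, Pdia3 at -1.53, Txndc5 at -0.71, Sep15 at -0.38, Selk at -0.31 and Txndc12 at -0.13. The 6 mitochondrial members had a median of -0.31, with 1 at least 2-fold higher (Txnrd2, which turned to -0.39 at equal summed RPKM) and 1 at least 2-fold lower (Gstk1), beside 11.4% and 28.3% of all genes. Both lists were chosen with the values known.

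The genes of this paragraph and the 6 named from the pathway lists above were named after their values were seen. Among NADPH sources, Idh2, the mitochondrial isocitrate dehydrogenase, was at 349 RPKM in fibers, 149 RPKM in epithelium and 120.2 RPKM in forebrain, and Me2, the mitochondrial malic enzyme, at 31.8, 9.13 and 12.4 RPKM. Their log2 ratios of 1.22 and 1.69 for fibers over epithelium were -0.91 and -0.31 at equal summed RPKM. G6pdx, which opens the pentose phosphate pathway, was at 10.2 RPKM in fibers, 9.19 RPKM in epithelium and 9.76 RPKM in forebrain. Blvra and Blvrb, the biliverdin reductases that follow haem oxygenase, were on opposite sides of 0 for fibers over epithelium as deposited (log2 ratios 1.70 and -1.41, the first turning to -0.23 at equal summed RPKM), at 20.0 and 2.0 RPKM in fibers, 5.47 and 6.97 RPKM in epithelium and 4.64 and 9.00 RPKM in forebrain. Aldose reductase (Akr1b3) was listed at or below 1.04 RPKM in every library, down to 1.79e-05 RPKM in fibers. Such small fractions were also listed for Hba-a2 (0.00389 RPKM in forebrain), where reads of close copies can be split unequally. Whether reads of Akr1b3 were assigned elsewhere was not tested, so these values do not show that the gene was barely expressed.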
